A study of Homo sapiens with 4 samples.

Results

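Cullin-RING ligases are ubiquitin ligases that mark proteins for the proteasome. A cullin serves as the scaffold, a RING protein at one end brings the ubiquitin-loaded enzyme, and an adaptor at the other end selects the substrate. F-box proteins reach CUL1 through the linker SKP1, DCAF proteins reach CUL4A and CUL4B through DDB1, and many BTB-domain proteins of the KLHL and KCTD families bind CUL3 directly. In liver cells, as in other cells, such ligases control the turnover of cell cycle regulators and stress response factors. The genes described here were those whose symbol named a cullin, RBX1, RNF7, SKP1, SKP2, DDA1, DDB1, DDB2, or a numbered DCAF, FBXL, FBXW, FBXO, KLHL, KLHDC or KCTD gene, and that had at least 1 protein-coding transcript in the data. By this rule there were 124 members among 11665 genes, with 290 of 30860 protein-coding transcripts. The rule reads symbols only, but it was set with earlier results of these data known. Only transcripts that reach 0.504 FPKM in some sample are listed, so genes below that level could not be members.

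RNA was sequenced from HCCLM3, a human hepatocellular carcinoma line, carrying a lentiviral hairpin that was either a control (shCtrl, n = 2) or directed against KIAA1429 (shKIAA1429, n = 2). KIAA1429, now named VIRMA, is a subunit of the nuclear complex that writes N6-methyladenosine on RNA. The comparison asked which genes lie downstream of it. Both groups were stable lines of 1 cell line, the knockdown used 1 hairpin sequence, and nothing in the labels says that the samples of a group were separate cultures, so p-values measure the spread between these samples, which may be technical.

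Values are FPKM, fragments scaled by transcript length and by the size of the library, so levels of different genes can be compared per length. A gene's level is the sum over its protein-coding transcripts. VIRMA itself was at 9.02 and 14.1 FPKM in the shCtrl samples and 5.81 and 8.52 in the shKIAA1429 samples, lower in both with a log2 fold change of -0.61 (SE 0.28) that did not pass the test (limma, adjusted p = 0.897). Of 20 hepatocyte and hepatoma marker genes, 17 were not among the listed transcripts, ALB and AFP included, and the summed level of the other 3 was 5.69 and 5.53 FPKM in shCtrl and 8.72 and 8.67 FPKM in shKIAA1429. Of 7 markers of other cell types 3 were listed (CD68, COL1A1 and ACTA2), with sums from 98.3 to 109 FPKM over the 4 samples, and PTPRC, CD3E, PECAM1 and VWF were not. Whether these shifts played a part in the values below was not tested. The sum of all listed FPKM ranged from 370253 to 390224, and read depth is unknown.

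The ligase genes as a whole were at much the same level in both groups. Their summed FPKM was 1132 and 1112 in the shCtrl samples and 1122 and 1094 in the shKIAA1429 samples, between 0.378% and 0.398% of all protein-coding FPKM. Most were expressed at a modest level: 55 had a mean under 5 FPKM, 57 a mean from 5 to 20 and 12 a mean of at least 20, with a median of 5.94 against 6.999 over all genes. Of the 124 members 116 had at least 1 FPKM in at least 2 samples and were tested, and the 8 below that level were FBXL2, FBXL7, FBXO16, FBXO36, KLHL25, KLHL28, KLHDC2 and KCTD7.

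No member passed both thresholds, which were an adjusted p under 0.05 and a log2 fold change beyond 1 in either direction, and neither did any of the 10781 genes tested (0%, limma on log2(FPKM + 1)). At an unadjusted p under 0.05 there were 5 of 116 members (4.31%), against 5.93% of all genes tested. Of these 3 were higher in shKIAA1429 (2.59%, against 3.11%) and 2 were lower (1.72%, against 2.82%). The 2 lower members were DDA1 and KCTD20, and the KCTD20 value depends on a row assignment described below. The smallest adjusted p of a member was 0.279, for DDA1, and the smallest over all genes was 0.244. The median log2 fold change of the members was 0.04, with 66 above and 50 below 0, against -0.01 over all genes. Both shKIAA1429 samples lay above both shCtrl samples for 22 members (19.0%, against 16.6% of all genes), and both lay below for 19 (16.4%, against 17.1%). These shares were near the background. With 2 samples against 2, an exact two-sided permutation test of a single gene cannot give a p under 0.333.

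**Figure D1:**
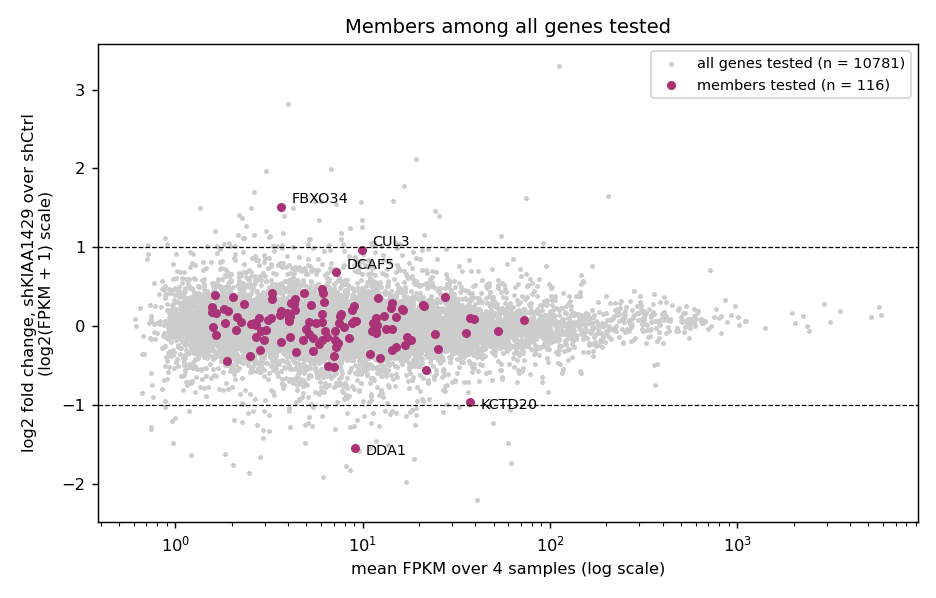
Log2 fold change of shKIAA1429 over shCtrl (vertical axis, log2(FPKM + 1) scale) against mean FPKM over the 4 samples (horizontal log axis) for the 10781 genes tested in grey and the 116 members tested in purple. Dashed lines mark a log2 fold change of 1 and -1, and DDA1 at -1.55 and FBXO34 at 1.51 are the members beyond them.

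Among the scaffolds, CUL3 stood apart. CUL3, the scaffold for BTB-domain adaptors, was at 6.75 and 5.98 FPKM in the shCtrl samples and 13.4 and 13.3 FPKM in the shKIAA1429 samples. Both shKIAA1429 samples were well above both shCtrl samples, with a log2 fold change of 0.97 (SE 0.14), but the adjusted p was 0.350 (limma). CUL2, which carries elongin-bound receptors such as VHL, was at 7.76 and 8.17 FPKM in shCtrl and 6.72 and 6.18 FPKM in shKIAA1429, lower in both (log2 fold change -0.27, SE 0.14, limma adjusted p = 0.923). CUL7, which pairs with the F-box protein FBXW8, was at 20.7 and 17.4 FPKM in shCtrl and 24.6 and 21.6 FPKM in shKIAA1429, a small difference in the other direction (log2 fold change 0.27, SE 0.16). CUL5, another scaffold of elongin-bound receptors, was at 4.04 and 4.67 FPKM in shCtrl and 4.03 and 3.68 FPKM in shKIAA1429, so that the groups nearly touched.

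The most abundant cullins were the paired CUL4 scaffolds. CUL4B was at 58.9 and 49.3 FPKM in shCtrl and 54.0 and 49.2 FPKM in shKIAA1429, and CUL4A was at 39.3 and 34.5 FPKM in shCtrl and 34.5 and 34.7 FPKM in shKIAA1429. CUL1, the scaffold of F-box ligases, was at 17.1 and 12.8 FPKM in shCtrl and 16.3 and 18.6 FPKM in shKIAA1429. The groups overlapped for all 3. CUL9 showed the opposite of a group pattern, since its levels of 2.66 and 0.37 FPKM in shCtrl and 0.39 and 3.85 FPKM in shKIAA1429 differed far more within groups than between them.

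RBX1, the RING protein of most cullins, was at 19.8 and 30.5 FPKM in shCtrl and 19.9 and 26.5 FPKM in shKIAA1429. RNF7, the RING protein that works with CUL5, was at 16.7 and 13.7 FPKM in shCtrl and 19.5 and 15.8 FPKM in shKIAA1429. Neither separated the groups.

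DDB1, the linker of CUL4 ligases, was the most abundant member, at 71.6 and 69.7 FPKM in shCtrl and 70.7 and 78.7 FPKM in shKIAA1429. SKP1, the linker of F-box ligases, was at 32.3 and 39.9 FPKM in shCtrl and 40.1 and 37.4 FPKM in shKIAA1429. Both linkers overlapped between groups. DDA1, a small protein that binds DDB1 in CUL4 ligases, did not overlap, with 15.1 and 13.1 FPKM in the shCtrl samples but 4.65 and 3.66 FPKM in the shKIAA1429 samples. Its log2 fold change of -1.55 (SE 0.17, limma adjusted p = 0.279) was the lowest of the members, where 0.649% of all genes tested lay below -1. DDA1 had a single listed transcript, at chr19:17420340-17434110 (GRCh37, plus strand), and its exons overlap those of ANO8 on the other strand. ANO8 was at 3.99 and 2.60 FPKM in shCtrl and 3.26 and 2.95 FPKM in shKIAA1429, with no separation of the groups. Exons of 9 of the 48 members checked overlap those of a listed gene on the other strand. Beside DDA1 these are CUL4A, CUL7, DDB1, FBXO11, FBXO44, DCAF17, KLHDC3 and KLHDC4. Exons of CUL7, DCAF7, DCAF8, FBXL19, FBXO10, KLHL22, RNF7 and SKP1 overlap those of unlisted genes on the same strand. Further members, CUL3 and KCTD20 among them, overlap unlisted genes on the other strand. Whether reads were counted by strand is not given in the sources used here.

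**Figure D2:**
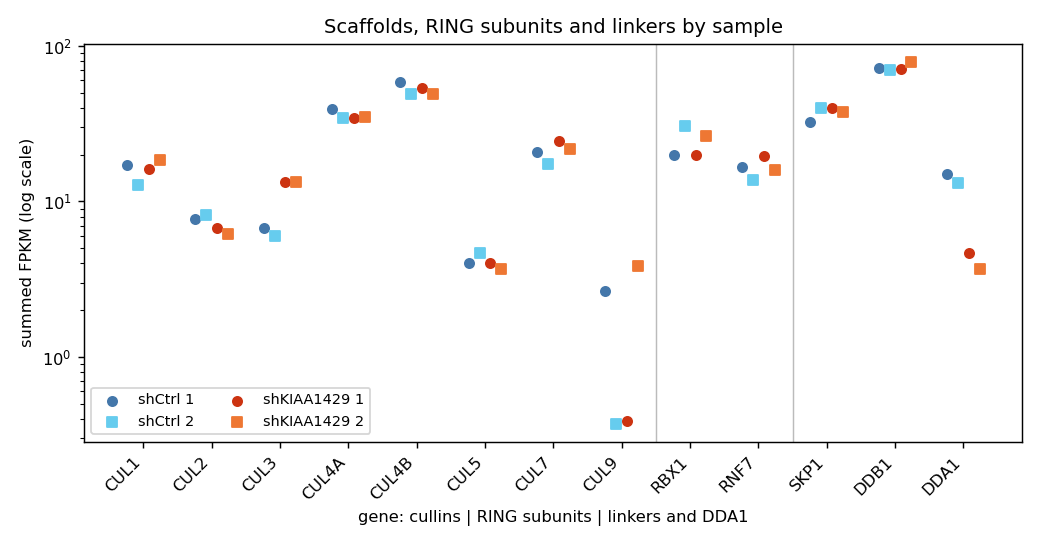
Summed FPKM (vertical log axis) of the 8 cullins, the 2 RING subunits and the 3 linker genes in each sample, shCtrl in blue tones and shKIAA1429 in red tones. Both shKIAA1429 samples of CUL3 sit above both shCtrl samples, both of DDA1 sit below, and the CUL9 points split within each group.

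Of the F-box adaptors, 53 were listed and 49 tested, with 32 log2 fold changes above 0 and 17 below. Over all genes tested 47.5% lay above 0. In the FBXO family 19 of 27 lay above 0, with a median of 0.13. Of these 27 genes 9 were higher in both shKIAA1429 samples, where 16.6% of all genes were, and 1 was lower, where 17.1% were. The family was singled out after its values were seen, and its difference from the other genes was not tested. FBXO34 had the highest log2 fold change of the members, with levels of 2.25 and 0.74 FPKM in shCtrl against 5.43 and 6.15 FPKM in shKIAA1429, and the log2 fold change of 1.51 (SE 0.33) had an adjusted p of 0.556 (limma). Over all genes tested 0.603% lay above a log2 fold change of 1. Its shCtrl samples differed by a factor of 3.05. FBXO7, mutated in an early-onset parkinsonism, was the most abundant of the family, at 23.7 and 23.9 FPKM in shCtrl and 37.4 and 25.6 FPKM in shKIAA1429, so that most of its difference lay in 1 sample.

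FBXO4 was at 2.39 and 2.94 FPKM in shCtrl and 4.02 and 3.72 FPKM in shKIAA1429 (log2 fold change 0.41, SE 0.16). FBXO25 was at 2.74 and 2.78 FPKM in shCtrl and 3.85 and 3.70 FPKM in shKIAA1429 (log2 fold change 0.34, SE 0.14). The samples of each group were close for both genes, yet the adjusted p was 0.847 and 0.863 (limma). The remaining FBXO genes without overlap that were higher in shKIAA1429 were FBXO8, FBXO18, FBXO31, FBXO33 and FBXO46, named here after their values were seen. FBXO10 was the 1 lower member, at 2.51 and 2.13 FPKM in shCtrl and 1.71 and 1.19 FPKM in shKIAA1429 (log2 fold change -0.44, SE 0.19, limma adjusted p = 0.863). FBXO11, a receptor for the repressor BCL6, was at 14.9 and 14.1 FPKM in shCtrl and 13.0 and 15.3 FPKM in shKIAA1429. FBXO44 was at 14.98 and 13.7 FPKM in shCtrl and 17.7 and 13.8 FPKM in shKIAA1429. Neither of these abundant members separated the groups.

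SKP2, the leucine-rich repeat F-box protein that targets the cyclin-dependent kinase inhibitor p27, was at 16.6 and 36.8 FPKM in shCtrl and 13.7 and 19.7 FPKM in shKIAA1429. The shCtrl samples differed by a factor of 2.22 and the groups overlapped (log2 fold change -0.56, SE 0.42, limma adjusted p = 0.957). FBXL18 was at 16.9 and 19.4 FPKM in shCtrl and 17.4 and 13.2 FPKM in shKIAA1429, and FBXL19 at 10.1 and 12.5 FPKM in shCtrl and 11.2 and 13.1 FPKM in shKIAA1429. FBXL14, which acts on the transcription factor Snail, was at 2.80 and 3.10 FPKM in shCtrl and 1.96 and 2.12 FPKM in shKIAA1429, lower in both (log2 fold change -0.38, SE 0.15, limma adjusted p = 0.851). FBXL17 was at 1.47 and 1.04 FPKM in shCtrl and 1.59 and 2.37 FPKM in shKIAA1429. Over the 15 FBXL genes tested the median was 0.04 on the log2 scale.

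Among the WD40 F-box proteins, FBXW5 was at 28.8 and 26.8 FPKM in shCtrl and 25.5 and 20.01 FPKM in shKIAA1429. FBXW11, a receptor for beta-catenin, was at 17.8 and 18.4 FPKM in shCtrl and 16.1 and 16.6 FPKM in shKIAA1429. Both were lower in both shKIAA1429 samples, by -0.29 (SE 0.17) and -0.14 (SE 0.13) on the log2 scale, with adjusted p of 0.931 and 0.964 (limma). FBXW8 was at 9.52 and 8.42 FPKM in shCtrl and 10.1 and 8.79 FPKM in shKIAA1429. Over the 7 FBXW genes it was 0.07.

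**Figure D3:**
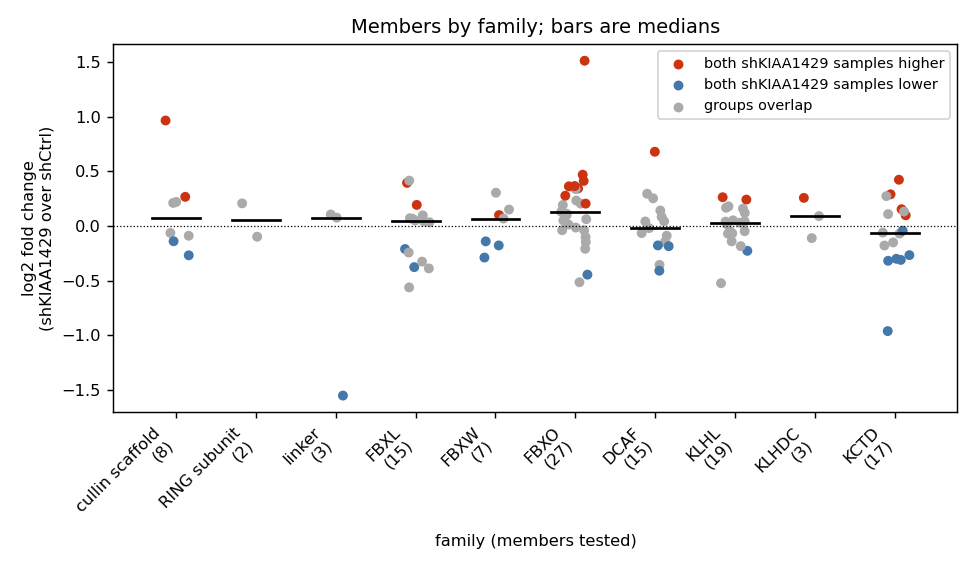
Log2 fold change of shKIAA1429 over shCtrl (vertical axis) for each member tested, by family (horizontal axis, number tested in brackets), with bars at the family medians. Red points have both shKIAA1429 samples above both shCtrl samples and blue points have both below. Of the 27 FBXO genes 9 were red and 1 blue, and of the 17 KCTD genes 4 were red and 6 blue. Over all genes tested 16.6% were higher and 17.1% lower. The 6 blue KCTD genes include KCTD20 as deposited, and 5 remain without it.

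The DCAF receptors of CUL4 ligases were balanced, with 7 above and 8 below 0 and a median of -0.02. DCAF5 was at 5.51 and 5.10 FPKM in shCtrl and 9.24 and 8.95 FPKM in shKIAA1429, higher in both with samples that were close within each group (log2 fold change 0.68, SE 0.14, limma adjusted p = 0.527). DCAF15, the receptor through which aryl sulfonamide drugs act, was at 12.1 and 16.2 FPKM in shCtrl and 8.83 and 12.1 FPKM in shKIAA1429, lower with groups that nearly touched. DCAF8 was at 19.98 and 18.4 FPKM in shCtrl and 15.9 and 17.9 FPKM in shKIAA1429, also lower by little. DCAF7 was at 23.9 and 15.2 FPKM in shCtrl and 21.9 and 24.1 FPKM in shKIAA1429. DDB2, which recognises ultraviolet damage in DNA, was at 2.27 and 4.69 FPKM in shCtrl and 3.46 and 4.08 FPKM in shKIAA1429. Neither DCAF7 nor DDB2 separated the groups.

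Of the BTB-Kelch adaptors of CUL3, 19 of 21 KLHL genes were tested, and their log2 fold changes stayed between -0.52 and 0.26 with a median of 0.03. KLHL12, which acts on the COPII coat, was at 13.8 and 8.86 FPKM in shCtrl and 11.9 and 10.9 FPKM in shKIAA1429. KLHL5 was at 11.9 and 10.98 FPKM in shCtrl and 10.3 and 11.4 FPKM in shKIAA1429. KLHL7 was at 10.9 and 5.10 FPKM in shCtrl and 9.68 and 2.30 FPKM in shKIAA1429, with sample gaps inside each group wider than the gap between groups. KLHL22 was at 4.57 and 4.87 FPKM in shCtrl and 5.67 and 6.05 FPKM in shKIAA1429, and KLHL15 at 1.32 and 1.39 FPKM in shCtrl and 1.70 and 1.87 FPKM in shKIAA1429. KLHL22 and KLHL15 were higher in both shKIAA1429 samples, with log2 fold changes of 0.26 (SE 0.14) and 0.24 (SE 0.15) and adjusted p of 0.926 and 0.937 (limma).

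The KLHDC proteins are Kelch-repeat receptors, some of which read C-terminal degrons with CUL2. KLHDC3 was at 35.2 and 40.6 FPKM in shCtrl and 38.6 and 42.1 FPKM in shKIAA1429, so its gene sum overlapped between groups (log2 fold change 0.09, SE 0.14). KLHDC10 was at 7.89 and 8.34 FPKM in shCtrl and 11.03 and 8.87 FPKM in shKIAA1429. KLHDC4 was at 1.68 and 1.64 FPKM in shCtrl and 2.51 and 0.73 FPKM in shKIAA1429, where the shKIAA1429 samples disagreed in direction.

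Of the 17 KCTD genes tested 7 had a log2 fold change above 0 and 10 below, near the balance of all genes, of which 5117 lay above and 5664 below 0. The KCTD median was -0.06. KCTD20, a BTB-domain protein related to BTBD10, was the most abundant of them and had the second smallest p of the members. As deposited its level was 52.1 and 47.2 FPKM in shCtrl and 25.2 and 24.9 FPKM in shKIAA1429, with a log2 fold change of -0.96 (SE 0.13, limma adjusted p = 0.346). That value depends on which transcript 1 row is assigned to. In the deposited tables the rows follow the order of the transcript identifiers except for 2, KCTD20-204 and GATA3-201, each of which stands at the place of the other. With the identifiers of these 2 rows exchanged, KCTD20 was at 41.7 and 36.5 FPKM in shCtrl and 37.9 and 37.4 FPKM in shKIAA1429, the groups overlapped, and the log2 fold change was -0.05 (SE 0.13, limma adjusted p = 0.993). With that exchange all rows follow the order of the identifiers. Which of the 2 assignments is right was not tested.

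KCTD2 was at 17.6 and 15.3 FPKM in shCtrl and 14.3 and 12.8 FPKM in shKIAA1429. KCTD17 was at 15.1 and 16.7 FPKM in shCtrl and 12.4 and 13.1 FPKM in shKIAA1429. Both were lower in both shKIAA1429 samples, by -0.27 (SE 0.15) and -0.30 (SE 0.14) on the log2 scale, with adjusted p of 0.928 and 0.894 (limma). KCTD15, a developmental regulator of the neural crest, was at 14.1 and 11.6 FPKM in shCtrl and 17.2 and 14.6 FPKM in shKIAA1429, higher in both (log2 fold change 0.29, SE 0.17, limma adjusted p = 0.936).

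Gaps between samples of the same group limited many of these values. The higher sample of a group was at least 2 times the lower one for 12 of the 116 members tested, against 10.2% of all genes, CUL9, SKP2, KLHL7, FBXO34, DDB2 and KLHDC4 among them.

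Transcript by transcript, 77 members had at least 2 protein-coding transcripts, with up to 8 each. No member transcript of 204 tested passed both thresholds, and neither did any of the 24996 transcripts tested (0%, limma). The member transcripts are protein-coding only, whereas the shares over all transcripts include noncoding ones, so the 2 sets are not alike in type. At an unadjusted p under 0.05 there were 17 (8.33%, against 6.28% of all), of which 7 were higher in shKIAA1429 (3.43%, against 3.10%) and 10 lower (4.90%, against 3.18%). The log2 fold change was above 1 for 9 (4.41%, against 3.31%) and below -1 for 13 (6.37%, against 3.92%). Both shKIAA1429 samples lay above both shCtrl samples for 40 member transcripts (19.6%, against 16.7%) and below for 36 (17.6%, against 16.8%). The leading transcript was the same in all 4 samples for 40 of the 77 members (51.9%, against 57.9% of all genes with at least 2). It agreed within each group and differed between the groups for 5 members, CUL3, DCAF5, DCAF17, KLHDC3 and KCTD20 (6.49%, against 3.59%).

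KLHDC3 had a like gene sum in both groups but a different make-up of transcripts. KLHDC3-203 was at 13.7 and 21.2 FPKM in the shCtrl samples and was listed at 0 in both shKIAA1429 samples. KLHDC3-201 was at 8.90 and 12.6 FPKM in shCtrl and 0.0061 and 0.036 FPKM in shKIAA1429. KLHDC3-202 was at 12.6 and 6.74 FPKM in shCtrl and 38.6 and 42.1 FPKM in shKIAA1429, where it made up 99.98% and 99.91% of the gene. The groups did not overlap for any of the 3, and the adjusted p was 0.114, 0.114 and 0.310 (limma over transcripts). KLHDC3-203 and KLHDC3-201 were, as deposited, the only member transcripts under 0.1 FPKM in both samples of one group and at least 5 FPKM in both of the other, which 0.0987% of all 38510 listed transcripts were. KCTD20-204 also meets this with the identifiers exchanged as described for KCTD20. The 38510 listed transcripts include noncoding ones, which the member transcripts do not. The gene lies at chr6:42981841-42989036 (GRCh37, plus strand), and its exons overlap those of MEA1 on the other strand. MEA1 was at 63.3 and 72.1 FPKM in shCtrl and 63.6 and 71.9 FPKM in shKIAA1429, without separation.

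KLHDC3-202 and KLHDC3-201 part at the junction after the third exon, which is shown as 1 of the places where their sequences differ, beside the exon itself and the start. KLHDC3-201 leaves out exon 4 of KLHDC3-202, a coding exon of 116 bases at chr6:42985591-42985706, and its annotated coding sequence has 744 bases against 1146. In the sequences, from the GRCh37 reference on the plus strand, the last 15 bases of the third exon, chr6:42985419-42985433, are in lower case and the first 15 bases of the next exon joined are in capitals, from chr6:42985591-42985605 in KLHDC3-202 and from chr6:42985883-42985897 in KLHDC3-201.
KLHDC3-202: atgcctttgacgtcaATACGCACAAGTGGT
KLHDC3-201: atgcctttgacgtcaGCGGACTGTTTTTCC

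The higher CUL3 sum came from 1 transcript. CUL3-216, at chr2:225338651-225370688, was at 1.28 FPKM in 1 shCtrl sample and listed at 1e-06 FPKM in the other, and was at 9.08 and 8.56 FPKM in shKIAA1429. It made up 68.0% and 64.1% of the gene in the shKIAA1429 samples (limma adjusted p = 0.340). The transcripts that span the whole gene, chr2:225334867-225450114, were not higher. CUL3-201 was at 3.91 and 4.16 FPKM in shCtrl and 2.95 and 3.52 FPKM in shKIAA1429, and CUL3-202 at 1.55 and 1.81 FPKM in shCtrl and 1.32 and 1.27 FPKM in shKIAA1429. On the minus strand, CUL3-216 covers the 3′ portion of the gene.

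The DCAF5 sum likewise rested on DCAF5-209, which was at 1.08 and 0.73 FPKM in shCtrl and 5.75 and 5.87 FPKM in shKIAA1429, with a log2 fold change of 1.84 (SE 0.21, limma adjusted p = 0.194). DCAF5-205 led in the shCtrl samples, at 3.23 and 3.10 FPKM, and was at 2.51 and 0.0061 FPKM in shKIAA1429. DCAF5-201 was at 0.32 and 0.21 FPKM in shCtrl and 0.24 and 2.54 FPKM in shKIAA1429, so the second shKIAA1429 sample held DCAF5-201 where the first held DCAF5-205. After the third exon DCAF5-209 has an acceptor shifted by 3 bases, which is not the sole place where it differs from the others. It has 2883 exonic bases, against 5946 in DCAF5-201 and 4803 in DCAF5-205. The junctions are shown as on the minus strand of GRCh37. The last 15 bases of the third exon, chr14:69585911-69585925, are in lower case and the first 15 bases of the fourth are in capitals. The capitals are from chr14:69584981-69584995 in DCAF5-201 and DCAF5-205 and from chr14:69584978-69584992 in DCAF5-209. DCAF5-202, another listed transcript of the gene, shares the DCAF5-201 junction.
DCAF5-201: ccatgatgttgaaagCAGTGAGACATTGGA
DCAF5-209: ccatgatgttgaaagTGAGACATTGGACGT

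KCTD20-202, the full-length transcript, was at 37.8 and 32.3 FPKM in shCtrl and 11.3 and 10.8 FPKM in shKIAA1429, lower in both by -1.58 on the log2 scale (SE 0.16, limma adjusted p = 0.171). This row stands in its own place. KCTD20-204 was at 10.4 and 10.7 FPKM in shCtrl and 11.6 and 11.9 FPKM in shKIAA1429 as deposited. With the identifiers exchanged this transcript was listed at 0 in both shCtrl samples and was at 24.3 and 24.4 FPKM in shKIAA1429, 64.2% and 65.3% of the gene, and KCTD20-202 made up 90.7% and 88.4% in shCtrl and 29.9% and 28.8% in shKIAA1429. Under either assignment KCTD20-202 led in shCtrl and KCTD20-204 in shKIAA1429. KCTD20-210, a minor transcript, was at 1.79 and 1.75 FPKM in shCtrl and 0.34 and 0.30 FPKM in shKIAA1429.

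KCTD20-204 skips 3 exons and 498 bases of KCTD20-202, and its coding sequence has 759 bases against 1257. The junctions are from the plus strand of GRCh37, the last 15 bases of the second exon, chr6:36438020-36438034, in lower case and the first 15 bases joined to it in capitals, from chr6:36442566-36442580 in KCTD20-202 and from chr6:36449339-36449353 in KCTD20-204. The KCTD20-202 junction is shared by 3 other listed transcripts of the gene, KCTD20-205, KCTD20-208 and KCTD20-209.
KCTD20-202: gtcccaggaatgaagACCTCTCACTTGACT
KCTD20-204: gtcccaggaatgaagGTGCTTTACTCCATG

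**Figure D4:**
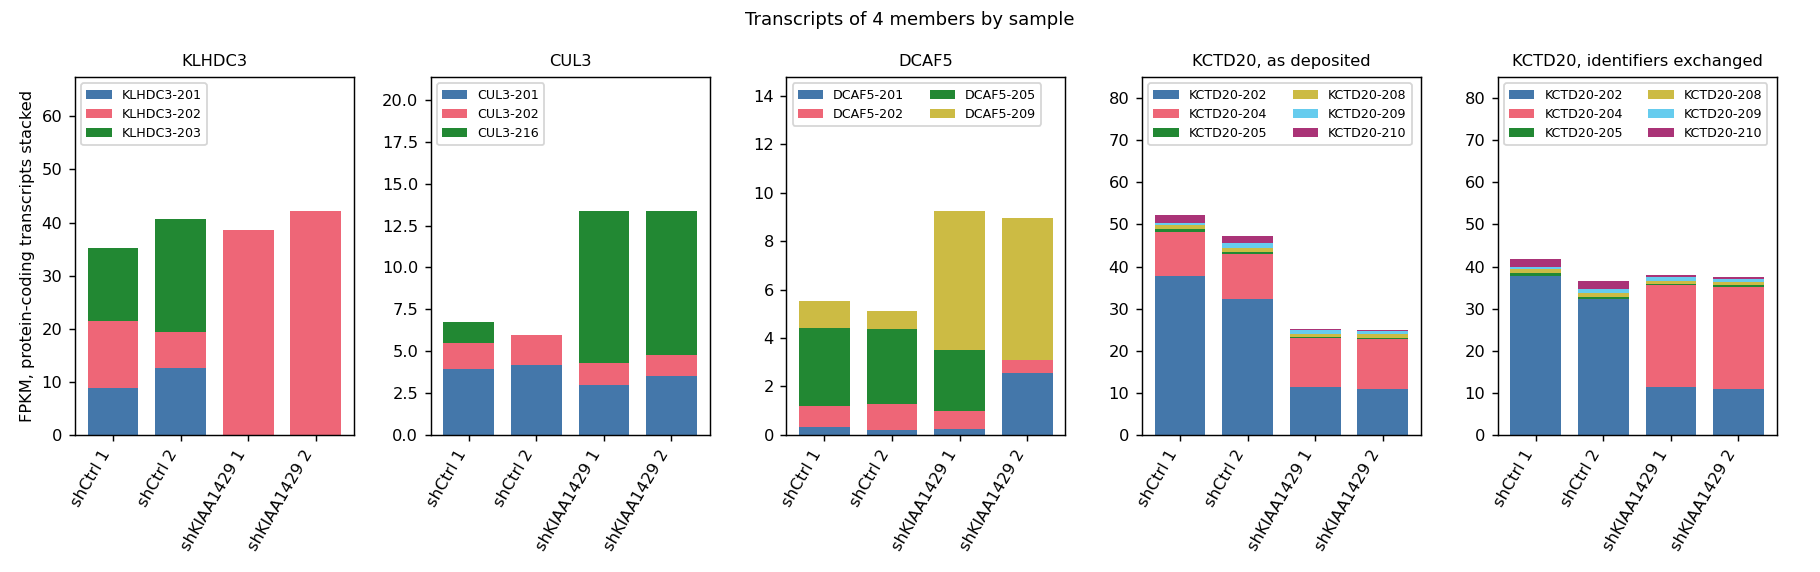
FPKM of the protein-coding transcripts of KLHDC3, CUL3, DCAF5 and KCTD20 stacked per sample (vertical axes, separate scales from 0), with KCTD20 drawn as deposited and with the identifiers of the misplaced pair of rows exchanged. KLHDC3-202 takes nearly the whole bar in both shKIAA1429 samples, CUL3-216 and DCAF5-209 make the bars taller, and the KCTD20 bars are near level after the exchange.

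FBXL12 and SKP2 also had transcripts among the 10 member transcripts of smallest p. FBXL12-211 was at 2.80 and 2.83 FPKM in shCtrl and 0.16 and 0.21 FPKM in shKIAA1429 (log2 fold change -1.69, SE 0.18, limma adjusted p = 0.182). SKP2-202 was at 5.59 and 3.19 FPKM in shCtrl and 1.21 and 1.04 FPKM in shKIAA1429 (log2 fold change -1.31, SE 0.30, limma adjusted p = 0.526). The wide gap of the SKP2 sum between the shCtrl samples came from other transcripts. SKP2-201 was at 2.42 and 11.02 FPKM in shCtrl and 2.85 and 8.65 FPKM in shKIAA1429, and SKP2-206 was listed at 0 in the first sample of each group and was at 12.4 and 6.18 FPKM in the second. SKP2-206 is protein-coding as deposited, but the annotation used here for structures classes it under nonsense-mediated decay. DCAF17, whose loss causes Woodhouse-Sakati syndrome, was led by DCAF17-211 in shCtrl, at 2.56 and 2.23 FPKM against 0.82 and 0 in shKIAA1429. DCAF17-202 led in shKIAA1429, at 1.90 and 2.70 FPKM against 0.73 and 0.91 in shCtrl.

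The 4-base sequence GGAC, a common form of the site at which N6-methyladenosine is written, was counted on the transcript strand in the 277 member transcripts found in the annotation. It was present in 98.9% of them at a median of 3.98 per kilobase, against 98.4% and 4.03 per kilobase over all listed protein-coding transcripts with a match. The member transcripts were longer, with a median length of 2686 bases against 2097 over all.

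The machinery that charges cullins with NEDD8 and removes it again, NEDD8 enzymes, CAND proteins and the COP9 signalosome, was taken as a list of 24 genes. Of the 22 tested none passed both thresholds, 7 had a log2 fold change above 0 and 15 below, and the median was -0.06 against -0.01 over all genes. COPS8, a COP9 subunit, was at 8.58 and 5.27 FPKM in shCtrl and 12.6 and 18.2 FPKM in shKIAA1429, the 1 gene of the 22 with an unadjusted p under 0.05, where 5.93% of all genes had one (log2 fold change 1.06, SE 0.29, limma adjusted p = 0.713). COPS5, its catalytic subunit, was at 20.4 and 18.2 FPKM in shCtrl and 18.7 and 18.5 FPKM in shKIAA1429. NEDD8 itself was at 35.2 and 39.2 FPKM in shCtrl and 42.2 and 33.0 FPKM in shKIAA1429.

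Cullin partners whose symbols lie outside the rule were taken as a list of 57 genes, of which 53 were tested. None passed both thresholds, 28 had a log2 fold change above 0 and 25 below, and the median was 0.02. Of the 53 only SPOP and RHOBTB1 (2 genes) had an unadjusted p under 0.05, against 5.93% of all genes. SPOP, a CUL3 receptor, was at 6.41 and 5.33 FPKM in shCtrl and 8.02 and 8.46 FPKM in shKIAA1429 (log2 fold change 0.43, SE 0.16, limma adjusted p = 0.838). KEAP1, the CUL3 receptor for NRF2, was at 13.7 and 15.6 FPKM in shCtrl and 12.5 and 8.99 FPKM in shKIAA1429 (log2 fold change -0.43, SE 0.20, limma adjusted p = 0.904). VHL, the CUL2 receptor for hypoxia-inducible factors, was at 4.64 and 4.26 FPKM in shCtrl and 4.87 and 4.88 FPKM in shKIAA1429. Of the 53 genes 11 were higher and 10 lower in both shKIAA1429 samples, where 16.6% and 17.1% of all genes were. SPOP and VHL were among the 11 and KEAP1 was among the 10.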

How the data were processed

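RNA-seq of 4 HCCLM3 samples (shCtrl and shKIAA1429, 2 each) was analysed from 1 deposited table per sample of FPKM for 38510 transcripts, in which every transcript reaches 0.504 FPKM in some sample. The authors made these FPKM values from reads aligned to hg19 (GRCh37). The submitters' processing notes name Bowtie2 2.1.0, and the study's methods name other aligner versions. The program that estimated FPKM per transcript, its treatment of strand and the read depth are not given in the sources used here, and estimates for transcripts that share exons can trade reads among each other. The labels name a cluster kit for single reads, while the methods describe paired-end reads.

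Protein-coding transcripts were summed per gene, and the listing of 48 noncoding transcripts of 31 members was left out. The fit over single transcripts kept noncoding ones, while counts of member transcripts are of protein-coding ones only. Genes and transcripts with at least 1 FPKM in at least 2 samples were fitted as log2(FPKM + 1) in limma 3.58.1 (R 4.3.3) with an intensity trend, all groups together and without covariates, and Benjamini-Hochberg adjustment ran over all genes or transcripts tested. A fold change on this scale understates that of low genes. A count test was not possible, since the deposited values are not counts. The fit was also run on data simulated from its own estimated means and variances. Such a run cannot show how well the fit handles the deposited FPKM values. Symbols that a spreadsheet had turned into dates (108 rows, none a member) were restored. Transcript structures and junction bases were taken from GENCODE 44 mapped to GRCh37, which held 277 of the 290 member transcripts by identifier. KLHDC3-203 and CUL3-216 were not among them. GENCODE 44 classes SKP2-206, DDB1-206, FBXW2-201 and FBXL13-207 under nonsense-mediated decay, and they were kept as protein-coding, as deposited. Named genes were the scaffolds, RING subunits, linkers, DDB2 and SKP2, per adaptor family the 3 most abundant and the 2 of smallest p, the 10 members and 10 member transcripts of smallest p, KCTD20, and transcripts under 0.1 FPKM in one group and at least 5 in the other, with further names marked where they were chosen after their values were seen. The list partners and DCAF17 were named for their role or their leading transcript. The members and lists were chosen with earlier results of these data known. Alternatives were another scaling, filter, pseudocount, variance estimate, replicate block, row assignment and summing, and leaving out each sample. Analyses used Python 3.11.15, pandas 2.3.3 and numpy 2.4.6.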

Additional observations from a re-analysis of the deposited data

How the results depend on the processing

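No member and no member transcript passed both thresholds under any alternative run. With an absolute log2 fold change over 1 and no test, 2 members were past it. Without shCtrl replicate 1, 1 gene of all those tested passed both thresholds, so the count of genes ran from 0 to 1 over the fits that leave out a sample. The smallest adjusted p of a member over all fits was 0.279. In the fits that leave out a sample, the median log2 fold change of the members ran from -0.0034 to 0.059. The median of the NEDD8 and COP9 list ran from -0.11 to 0.046 and that of the other cullin partners from -0.0072 to 0.061. In the same fits the members without overlap ran from 34 to 48 higher (29.3% to 41.4%, against 30.0% to 34.0% of all genes). From 30 to 38 were lower (25.9% to 32.8%, against 31.2% to 38.4%). Fewer samples make such an order easier to reach. KCTD20 ran from -1.03 to -0.89, and was at -0.05 with the identifiers of the 2 rows exchanged. With that exchange 3.45% of the members had an unadjusted p under 0.05 (limma), against 5.91% of all genes. Both shKIAA1429 samples then lay below both shCtrl samples for 15.5% of the members, against 17.1%. All listed transcripts summed, an alternative added after the data were seen, turned KLHDC4 to 0.13. The noncoding transcript that this sum adds to KLHDC4, KLHDC4-223, was at 0.14 and 0.10 FPKM in shCtrl and 1.19 and 0.24 FPKM in shKIAA1429. Leaving out 1 sample changed the sign of 15 of the 45 named members: CUL4A from -0.18 to 0.0029, CUL4B from -0.19 to 0.063, CUL9 from -0.69 to 1.11, RBX1 from -0.40 to 0.20, SKP1 from -0.042 to 0.25, DDB2 from -0.26 to 0.54, DCAF7 from -0.056 to 0.56, FBXL19 from -0.043 to 0.24, FBXW8 from -0.023 to 0.16, FBXO11 from -0.15 to 0.070, FBXO44 from -0.055 to 0.28, KLHL7 from -1.37 to 0.33, KLHL12 from -0.25 to 0.33, KLHDC3 from -0.0093 to 0.19 and KLHDC4 from -0.62 to 0.40. The other 30 kept their sign, but 17 of them moved by more than 1.5 times, among them SKP2, from -1.11 without shCtrl replicate 1 to -0.0081 without shCtrl replicate 2, FBXW5, from -0.45 without shKIAA1429 replicate 1 to -0.12 without shKIAA1429 replicate 2, FBXO7, from 0.10 to 0.63, and CUL1, from 0.024 to 0.42. CUL3 stayed between 0.89 and 1.04, DCAF5 between 0.63 and 0.73 and DDA1 between -1.69 and -1.41.

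Samples of the 2 groups share replicate numbers, but no label ties the numbers to a batch. The difference between replicates 1 and 2 correlated between the groups with r = 0.29 across the genes tested and r = -0.04 across the members, which are not independent replicates. With the replicate number as a block, 0 members, 0 genes and 0 member transcripts passed both thresholds, 11 members (9.48%) against 5 had an unadjusted p under 0.05, where the share of all genes went from 5.93% to 10.8%, and the smallest adjusted p of a member was 0.327.

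Read depth is unknown, and no counting error is given. Transcript values that rest on few junction bases, and exact zeros, can be failed estimates.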
